A study of Rattus norvegicus with 6 samples.

Results

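Solute carriers are the membrane proteins that move amino acids, sugars, ions, metals, vitamins, fatty acids and organic anions and cations across the plasma membrane and the membranes of organelles. Many are secondary transporters that draw on the sodium, proton or chloride gradients set up by ion pumps, others exchange one solute for another or let it pass down its gradient. In peripheral nerve they feed axons and Schwann cells, load synaptic vesicles, and form part of the barriers at vessels, perineurium and meninges. The probes of these genes were taken by symbol, as those whose platform gene symbol begins with Slc followed by a family number, a letter and a member number, and that were detected (detection p under 0.01) on 2 or more of the 6 arrays. They were thus chosen by symbol and by whether the probe was detected, not by a difference between strains, although a probe may have been detected in 1 strain and not in another. Of 295 such probes on the array 294 were used, and 164 met the rule, for 164 genes of 46 families. Of these, 162 are carriers by name, and Slc4a1ap and Slc7a6os are not carriers but carry the name of a neighbour or partner.

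The tissue was trigeminal nerve from untreated inbred rats aged 85 days, with 1 pool of males and 1 pool of females from each of 3 strains, and 1 Illumina rat BeadChip array per pool. BDIX rats develop malignant schwannomas of this nerve after the alkylating carcinogen ethylnitrosourea, and BDIV rats are resistant. BDIX.BDIV-Mss4a, called congenic below, carries the BDIV segment Mss4a on the BDIX background, and no rat in the series received the carcinogen. How many animals went into a pool is not known here, and each strain rested on 2 arrays, 1 per sex. The p-values therefore reflect only how far these 6 pools scatter around a model of strain plus sex. In pooled nerve RNA, fewer cells of a type and less RNA per cell cannot be told apart, and a base change under a probe could read as a change in level.

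All levels below are log2 normalised intensity after background correction and quantile normalisation. Pairs of values are male then female, and differences are log2 ± SE from 2 arrays per strain. Levels of different probes were not compared with each other, since probes differ in brightness. A call is a limma adjusted p under 0.05 over all 10484 probes tested.

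Of the 164 members 120 were detected on all 6 arrays, 9 on 5, 11 on 4, 8 on 3 and 16 on exactly 2. Another 12 probes were detected on 1 array and 118 on none. The second smallest detection p of the 16 members just inside the rule ran from 0.00242 to 0.0097, and that of the 12 probes just outside from 0.0109 to 0.0958. Of the 16, 10 owe their place to 1 strain. Both BDIV arrays alone carried Slc17a7, Slc18a2, Slc25a26, Slc30a10, Slc30a8, Slc38a7, Slc4a11 and Slc8a3, both BDIX arrays alone Slc26a1, and both congenic arrays alone Slc22a8. Such members had to be higher in that strain, so their values are given below without a test. They make up 2 of the 44 calls counted below between BDIV and BDIX (Slc4a11 and Slc17a7), 1 of 17 between the congenic and BDIX (Slc22a8) and 4 of 62 between the congenic and BDIV (these 3 and Slc38a7). No array of the strain detected 12 members in BDIX, 6 in BDIV and 26 in the congenic. These were admitted through the other strains alone, so the rule favoured lower values in the strain without detection. Where such a member passed against that strain it stays in the counts, and its fold is given below without a p-value. The congenic arrays were also the dimmest, with an upper quartile of signal over background of 2.58 and 2.63 against 5.33 to 6.46 on the other 4, and detected 133 and 135 of the members against 142 to 155.

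Slc39a8, the zinc and manganese importer, was detected on 6 arrays, but its values were exchanged between the deposited tables, and it was left out. Of 34 well known carrier genes listed to check the detected set, 26 were members. The probes of Slc1a2, Slc2a1, Slc7a11 and Slc12a5 were not detected on 2 arrays, and 4 genes had no probe in use.

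Counted in both directions together, the carriers differed between strains about as often as other genes. Between BDIV and BDIX 44 members passed, 26.8% of them, against 27.3% of all probes tested, with 19 higher and 25 lower in BDIV (11.6% and 15.2%, against 13.7% and 13.6% of all probes). Between the congenic and BDIX 17 members passed (10.4%), against 11.9% of all probes, with 13 higher and 4 lower in the congenic. These were 7.93% and 2.44% of the members, against 4.33% and 7.56% of all probes, so that higher calls were the more frequent among the members and lower calls among all probes. Between the congenic and BDIV 62 members passed (37.8%), against 37% of all probes, with 40 higher and 22 lower in the congenic (24.4% and 13.4%, against 18.1% and 18.9% of all probes). The median difference of the members was 0.04, 0.09 and 0.11 in these comparisons, against -0.03, 0.00 and -0.02 over all probes. The totals lie near the background and are no result about carriers as a group. The split by direction in the congenic comparisons was not tested, and under median scaling most calls there were lower. The comparisons share arrays and are not independent of each other. Both BDIV arrays lay above the other 4 for 39 members and below them for 43, 23.8% and 26.2% of the members against 23.8% and 26.1% of all probes. Both congenic arrays lay above for 46 and below for 30, 28% and 18.3% against 19.4% and 19.4%, and both BDIX arrays above for 15 and below for 26, 9.15% and 15.9% against 14.1% and 13.2%.

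These counts leaned on single arrays. The BDIV against BDIX count was 7 without the BDIV female array and 22 without the BDIV male. The congenic against BDIX count was 7 without either BDIV array, 9 without the congenic male, 8 without the congenic female, 46 without the BDIX male and 31 without the BDIX female. The congenic against BDIV count was 21 without the BDIV female, 26 without the BDIV male and 37 without the congenic female. Of the calls in the order given above, 7 of 44, 1 of 17 and 14 of 62 stayed whichever array was left out. Over the members, male minus female had an SD of 0.390 for the BDIX pair, 0.424 for the congenic pair and 0.302 for the BDIV pair.

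**Figure D1:**
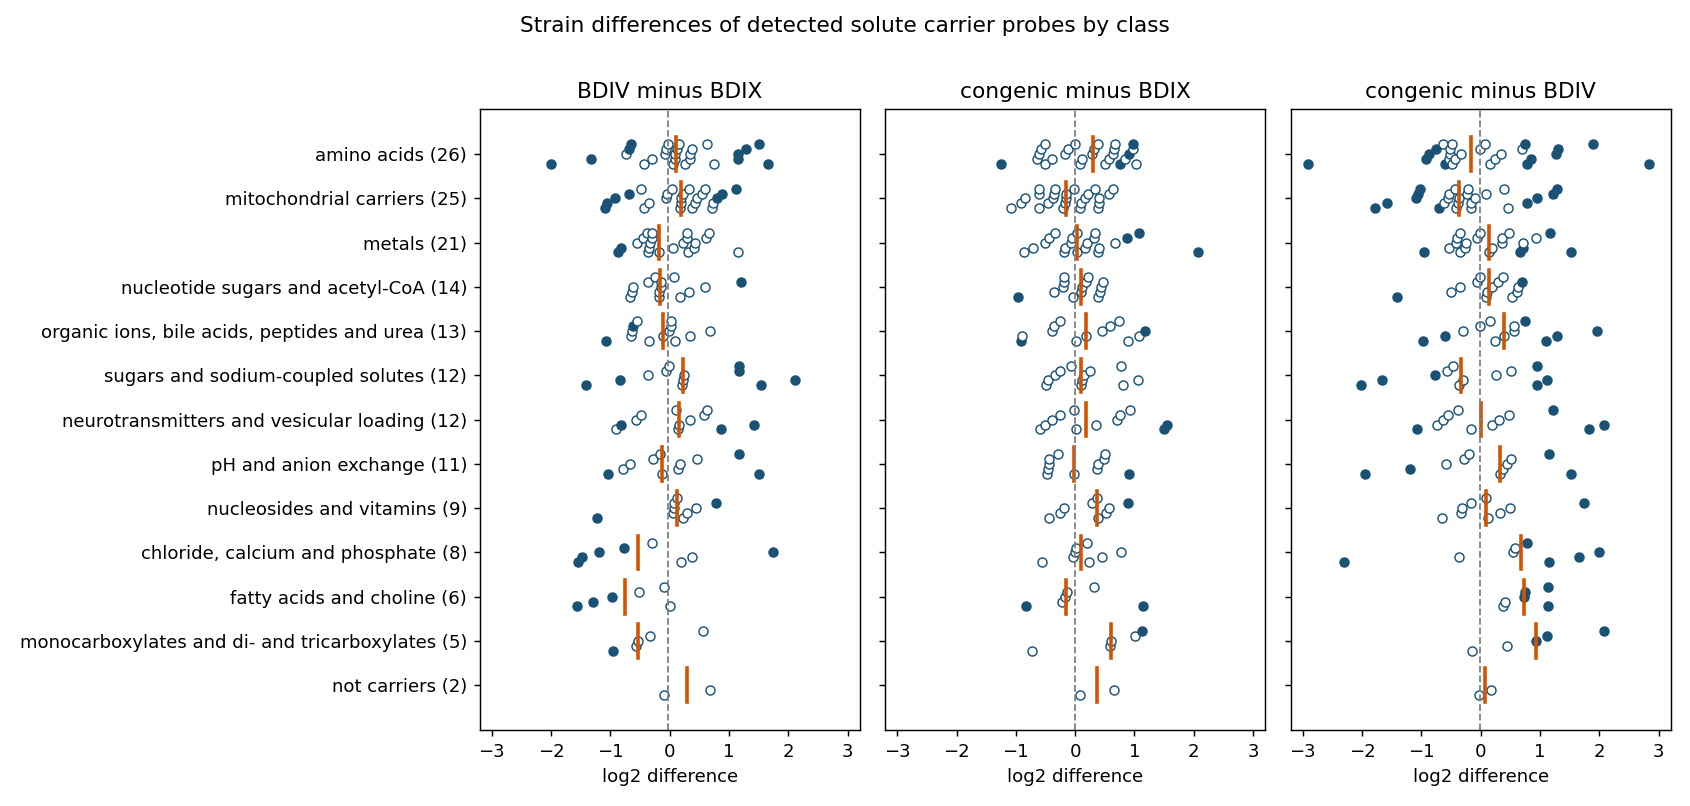
Log2 strain differences of the 164 members, one circle per member, in rows by transporter class with the number of members in brackets. Filled circles passed an adjusted p of 0.05, orange bars are class medians and the dashed line is the median of all 10484 probes tested. The classes of chloride, calcium and phosphate (median -0.54), fatty acids and choline (-0.75), and mono-, di- and tricarboxylates (-0.53) lie to the left in BDIV minus BDIX.

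Scaling mattered for every comparison with the congenic. When arrays were scaled to a common median instead of quantile normalised, the median over all probes moved to -0.52 in congenic minus BDIX and to -0.64 in congenic minus BDIV, while BDIV minus BDIX moved to 0.07. The members called were then 59 for congenic minus BDIX, with 4 higher and 55 lower, and 83 for congenic minus BDIV, with 13 higher and 70 lower. Of the calls under quantile normalisation 0 of 17 and 9 of 62 changed sign. After the all-probe median was subtracted 1 of 62 did, Slc38a7, whose probe was not detected on any congenic array. Of the 17 calls for congenic minus BDIX 7 stayed under median scaling, those of Slc3a1, Slc44a1, Slc39a12, Slc6a20a, Slc35b2, Slc22a17 and Slc22a8. With the authors' processed values 4 stayed, those of Slc3a1, Slc6a20a, Slc46a3 and Slc35b2. The rest were lost, also where this is not repeated below. Which scaling is right for the dim congenic arrays was not tested, and congenic differences are given relative to the other probes.

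**Figure D2:**
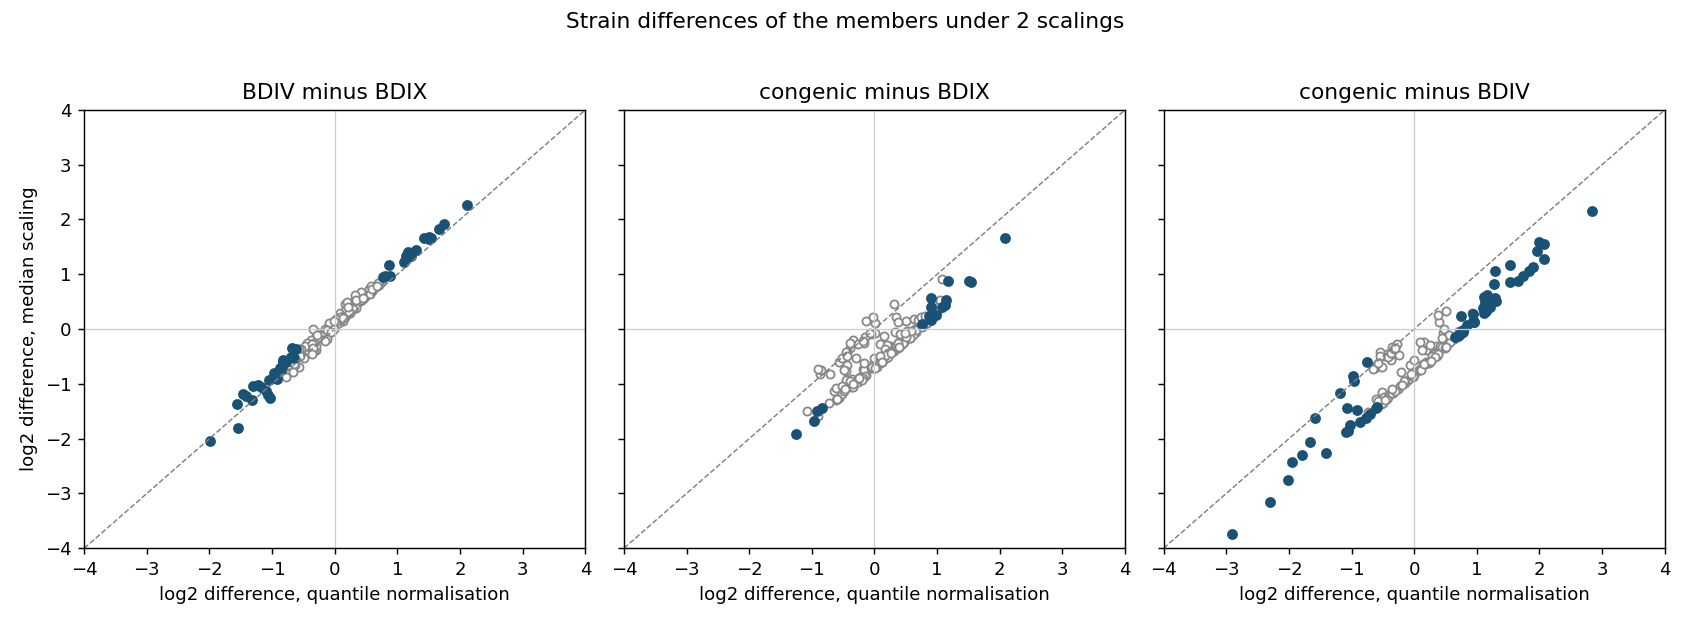
Log2 strain differences of the 164 members under quantile normalisation (x axis) and under median scaling (y axis), one circle per member, filled where the quantile-normalised call passed. Points follow the dashed line of equality for BDIV minus BDIX and lie below it for most members in both congenic comparisons.

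The nerve pools differed in marker genes of cell types as well, and these values stand beside the carriers they could touch. Of 14 sensory neuron markers tested 11 were higher in BDIV than in BDIX and 0 lower. The myelinating Schwann cell list had 7 of 10 lower in BDIV, the fibroblast list 7 of 11, the endothelial list 4 of 5 and the red cell list 7 of 8. Of the red cell list Alas2 and Hemgn were detected on no BDIV array, so the detection rule favoured lower values there. Over all probes 13.7% were higher and 13.6% lower in BDIV than in BDIX, and 4.33% and 7.56% in the congenic than in BDIX. The lists were not tested against these shares. In the congenic 7 of 9 airway and gland markers were higher than in BDIX, among them Bpifa1 and Lipf. Of that list Bpifa1, Lipf, Vegp2, Cyp2g1, Cyp2f4 and Cyp2a3 were detected on the congenic arrays alone. They were tested only through them and had to be higher there, so their calls carry no test. Lower than in BDIX in the congenic were 4 of the 10 myelinating Schwann cell markers, 3 of the 11 fibroblast markers and 3 of the 8 red cell markers, with 0 higher in each list. Of the sensory neuron markers 2 were higher and 1 lower there, and of the endothelial markers 1 was higher. Of 3 satellite glia markers tested 1 was higher in BDIV than in BDIX, while 1 was higher and 1 lower in the congenic. Of 2 skeletal muscle markers 1 was higher in BDIV and 1 in the congenic. Their part in the results below was not tested.

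Amino acid carriers were the most numerous class, with 26 members. Between BDIV and BDIX 9 passed (5 higher, 4 lower), between the congenic and BDIX 4 (3 higher, 1 lower), and between the congenic and BDIV 12 (7 higher, 5 lower). These were 34.6%, 15.4% and 46.2% of the class, against 27.3%, 11.9% and 37% of all probes. The class was not tested against the rest. Slc3a1, the heavy chain that carries a cystine and basic amino acid transporter to the membrane in kidney, read 8.40 and 8.93 in BDIX, 10.26 and 10.39 in BDIV and 7.46 and 7.37 in the congenic. The 3 strains did not overlap, with BDIV highest and the congenic lowest. The difference was 1.66 ± 0.22, adjusted p = 0.00449 for BDIV minus BDIX, -1.25 ± 0.22, adjusted p = 0.022 for congenic minus BDIX and -2.91 ± 0.22, adjusted p = 0.000737 for congenic minus BDIV. The call against BDIX was lost on leaving out 1 array (adjusted p = 0.101 without the congenic female array), and the other calls were kept in each such fit.

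Slc38a5, a sodium-coupled carrier of glutamine and other neutral amino acids, read 8.02 and 7.98 in BDIX, 6.01 and 6.0 in BDIV and 9.08 and 8.60 in the congenic. Both BDIV arrays lay far below the other 4. BDIV minus BDIX was -1.99 ± 0.23, adjusted p = 0.00341, and congenic minus BDIV was 2.83 ± 0.23, adjusted p = 0.000931, the largest increase of any member in that comparison. Slc1a5, the exchanger for glutamine and small neutral amino acids, followed with 7.74 and 8.13 in BDIX, 6.61 and 6.61 in BDIV and 8.37 and 8.64 in the congenic. It was lower in BDIV than in BDIX by the fit (-1.32 ± 0.22, adjusted p = 0.00735; adjusted p = 0.105 without the BDIV female array) and higher in the congenic than in BDIV (1.89 ± 0.22, adjusted p = 0.00208). Slc38a1, another sodium-coupled glutamine carrier, read 8.79 and 8.69 in BDIX, 8.16 and 8.01 in BDIV and 9.34 and 9.45 in the congenic. BDIV minus BDIX was -0.65 ± 0.19, adjusted p = 0.0426, and congenic minus BDIV was 1.31 ± 0.19, adjusted p = 0.00372. Both calls were lost under median scaling, and congenic minus BDIX did not pass (0.66). The BDIV against BDIX call of Slc38a1 was lost in 4 of 6 fits with an array left out (adjusted p = 0.384 without the BDIV female array).

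Members higher in BDIV were Slc7a7, the light chain of an exchanger of basic for neutral amino acids (1.29 ± 0.18, adjusted p = 0.00518), Slc7a4 (1.51 ± 0.30, adjusted p = 0.0127), Slc66a1, the lysosomal exporter of basic amino acids (1.14 ± 0.22, adjusted p = 0.0122), and Slc66a2 (1.15 ± 0.20, adjusted p = 0.008). All 4 calls were lost without the BDIV female array, at an adjusted p of 0.0634, 0.119, 0.146 and 0.104 in that order. Slc7a7 read 9.38 and 9.39 in BDIX, 10.67 and 10.69 in BDIV and 10.32 and 9.98 in the congenic, so BDIV was above the congenic and the congenic above BDIX. Its call for congenic minus BDIX (0.76 ± 0.18, adjusted p = 0.0431; adjusted p = 0.346 without the congenic male array) was lost under median scaling. Slc3a2, the heavy chain shared by the plasma membrane light chains, read 12.45 and 12.66 in BDIX, 11.96 and 11.80 in BDIV and 11.76 and 12.14 in the congenic, and was lower in BDIV than in BDIX (-0.68 ± 0.20, adjusted p = 0.0437; adjusted p = 0.486 without the BDIV female array). Its partner Slc7a5, the exchanger of large neutral amino acids, passed in no strain comparison, with -0.03, 0.68 and 0.70.

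In the congenic Slc38a4 (BDIX 7.66 and 7.63, congenic 8.64 and 8.46; 0.91 ± 0.20, adjusted p = 0.0358) and Slc1a1, the neuronal type glutamate and cysteine carrier (BDIX 8.08 and 7.56, congenic 8.64 and 8.95; 0.98 ± 0.25, adjusted p = 0.0467), were higher than in BDIX. Both calls were lost under median scaling and on leaving out single arrays (adjusted p = 0.172 without the congenic male array for Slc38a4, and adjusted p = 0.276 without the congenic female array for Slc1a1). Slc1a3, the glial glutamate carrier, read between 9.71 and 10.47 on the 6 arrays and passed in no strain comparison. Slc7a1, a basic amino acid carrier, had the narrowest range of all members, 0.24 over the 6 arrays.

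The promoters of 6 members are shown because these members stood out in BDIV, 3 among the highest and 3 among the lowest there. They were chosen after the values were seen, as the members with a RefSeq promoter that were detected on all 6 arrays, passed in both comparisons with BDIV and had the largest smaller difference of the pair. Each is the 250 bases before the start of the gene on the GRCr8 assembly, 5′ to 3′ on the gene's strand, and the reference is not the BDIX or BDIV sequence. Capitals mark matches to 6 motifs, searched on both strands. The E-box was searched as CACGTG, the binding site of helix-loop-helix factors. The cyclic AMP response element was searched as TGACGTCA, and the amino acid response element, bound by stress-induced factors, as TGATGCAA. The GC box of Sp factors was searched as GGGCGG, and the CCAAT box by the letters of its name. The TATA box near the start was searched as TATAAA. Where matches overlap the capitals run together. Highest in BDIV were Slc2a5 (chr5:165865929-165866178, plus strand), Slc24a2 (chr5:106787781-106788030, minus strand) and Slc3a1 (chr6:15394750-15394999, minus strand).
Slc2a5: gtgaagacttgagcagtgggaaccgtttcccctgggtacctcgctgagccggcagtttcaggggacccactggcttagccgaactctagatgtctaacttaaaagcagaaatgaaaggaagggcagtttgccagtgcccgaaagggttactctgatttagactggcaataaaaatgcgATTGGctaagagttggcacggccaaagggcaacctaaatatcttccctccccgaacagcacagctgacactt
Slc24a2: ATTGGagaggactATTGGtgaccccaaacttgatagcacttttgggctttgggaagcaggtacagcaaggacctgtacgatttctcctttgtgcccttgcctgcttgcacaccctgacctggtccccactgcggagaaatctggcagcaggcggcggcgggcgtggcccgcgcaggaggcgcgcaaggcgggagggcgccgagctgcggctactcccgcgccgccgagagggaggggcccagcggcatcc
Slc3a1: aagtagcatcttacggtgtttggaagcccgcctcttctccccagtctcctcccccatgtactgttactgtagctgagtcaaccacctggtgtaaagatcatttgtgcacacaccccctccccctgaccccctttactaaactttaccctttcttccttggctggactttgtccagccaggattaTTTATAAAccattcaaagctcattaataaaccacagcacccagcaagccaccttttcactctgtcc
Lowest in BDIV were Slc38a5 (chrX:16894471-16894720, minus strand), Slc29a3 (chr20:29228300-29228549, minus strand) and Slc12a4 (chr19:50770123-50770372, minus strand).
Slc38a5: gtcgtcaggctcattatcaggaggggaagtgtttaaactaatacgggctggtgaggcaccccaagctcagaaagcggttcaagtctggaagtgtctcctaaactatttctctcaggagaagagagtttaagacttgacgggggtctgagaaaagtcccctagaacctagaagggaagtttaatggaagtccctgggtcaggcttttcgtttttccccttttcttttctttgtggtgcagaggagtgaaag
Slc29a3: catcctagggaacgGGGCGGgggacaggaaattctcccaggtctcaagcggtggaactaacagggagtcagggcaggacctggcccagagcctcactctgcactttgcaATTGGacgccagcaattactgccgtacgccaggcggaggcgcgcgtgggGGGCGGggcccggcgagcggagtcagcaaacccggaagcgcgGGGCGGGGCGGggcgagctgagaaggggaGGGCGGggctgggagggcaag
Slc12a4: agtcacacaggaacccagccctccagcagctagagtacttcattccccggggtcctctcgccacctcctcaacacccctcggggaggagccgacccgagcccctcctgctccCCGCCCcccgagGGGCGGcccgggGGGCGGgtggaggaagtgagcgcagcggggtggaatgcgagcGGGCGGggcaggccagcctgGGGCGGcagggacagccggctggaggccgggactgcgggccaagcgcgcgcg

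In these windows Slc3a1 held overlapping TATA box matches on both strands, Slc2a5 1 CCAAT box and Slc24a2 2. Slc29a3 and Slc12a4 each held 5 GC boxes, and Slc38a5 held no match. Over the 132 members with a promoter in the table, 61.4% held a GC box, against 30.5% of all 33469 promoters, which include those of every kind of gene. The members are genes detected in nerve, counted with 1 promoter each. All promoters were limited in neither way, so the shares here are not of like sets. An E-box was found in 13.6% of member promoters (5.59% of all), a cyclic AMP response element in 3.79% (1.59%), a CCAAT box in 38.6% (34%), a TATA box in 5.30% (12.9%) and the amino acid response element in 1.52% (0.693%). The GC box share was 52.9% in 17 members higher in BDIV than in BDIX, 57.1% in 21 lower and 63.8% in the 94 that did not pass. A match is a string of letters and no evidence that a factor binds.

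**Figure D3:**
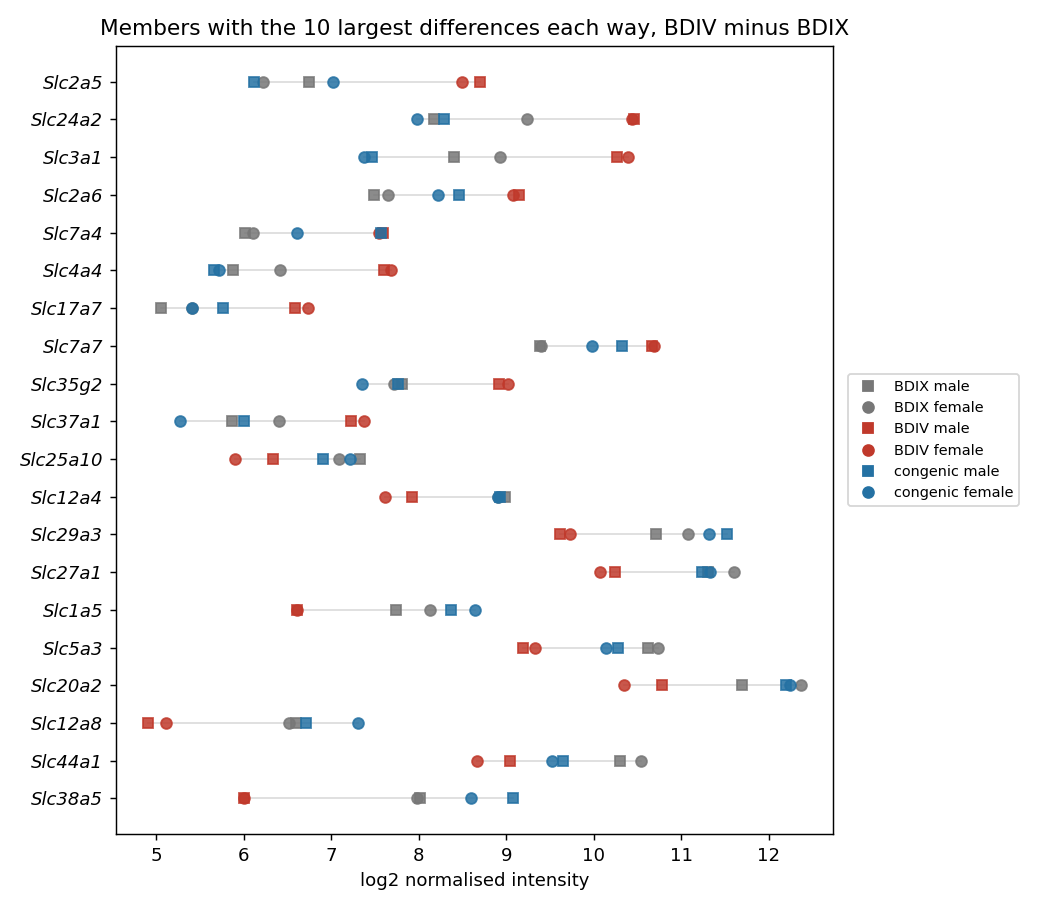
Log2 normalised intensity of the members with the 10 largest increases (upper rows) and the 10 largest decreases (lower rows) in BDIV minus BDIX, 1 symbol per array, with squares for male and circles for female pools. The BDIV arrays (red) lie at the high end of the row or beside a congenic array for the upper 10 and at the low end for the lower 10. Slc17a7, in the upper rows, is a member only through the BDIV arrays and had to be higher there.

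Sugar carriers and sodium-coupled carriers of sugar-like solutes and vitamins numbered 12. In BDIV against BDIX 6 passed, 4 higher and 2 lower. That was 50% of the class, against 27.3% of all probes, and the class was not tested against them. Slc2a5, the fructose carrier, read 6.75 and 6.22 in BDIX, 8.70 and 8.50 in BDIV and 6.12 and 7.03 in the congenic, with both BDIV arrays above the other 4. The difference between BDIV and BDIX was 2.11 ± 0.35, adjusted p = 0.00749, the largest increase among the members, and congenic minus BDIV was -2.02 ± 0.35, adjusted p = 0.00617. Slc2a6, a hexose carrier of lysosomes, read 7.49 and 7.65 in BDIX, 9.15 and 9.08 in BDIV and 8.46 and 8.22 in the congenic and was higher in BDIV than in BDIX (1.54 ± 0.21, adjusted p = 0.00462) with the congenic between them. Slc37a1, an exchanger of glucose phosphate for phosphate in the endoplasmic reticulum (1.17 ± 0.32, adjusted p = 0.0354; adjusted p = 0.234 without the BDIV female array), and Slc45a1, a proton-coupled sugar carrier (1.16 ± 0.23, adjusted p = 0.0127; adjusted p = 0.127 without the BDIV male array), were also higher in BDIV.

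Slc5a3, which takes up myo-inositol with sodium and serves cell volume regulation, went the other way, with 10.62 and 10.73 in BDIX, 9.19 and 9.33 in BDIV and 10.27 and 10.14 in the congenic. BDIV lay below the other 4 arrays and BDIX above. BDIV minus BDIX was -1.41 ± 0.18, adjusted p = 0.00432 and kept its call whichever array was left out. Slc50a1, a sugar carrier of the Golgi, was lower in BDIV (-0.84 ± 0.25, adjusted p = 0.0453; adjusted p = 0.232 without the BDIV female array). The insulin-regulated glucose carrier Slc2a4 and the high-affinity glucose carrier Slc2a3 were detected on 2 arrays each, 1 array per strain where they were detected, and passed in no comparison. Slc5a5, the sodium and iodide carrier of thyroid and salivary gland, read 5.71 and 5.76 in BDIX, 5.42 and 5.91 in BDIV and 7.18 and 6.39 in the congenic, and was higher in the congenic than in BDIV (1.12 ± 0.32, adjusted p = 0.032; adjusted p = 0.285 without the BDIV male array). The 9 airway and gland markers had a mean log2 level of 8.40 and 8.08 in the congenic, against 5.25 to 5.62 on the other 4 arrays. Between the congenic pools they were split, with 5 of 9 higher in the female. Bpifa1, Lipf, Vegp2, Cyp2g1, Cyp2f4 and Cyp2a3 of this list passed detection only through the congenic arrays and had to be higher there. Lipf read 10.15 and 7.69, and Bpifa1 8.34 and 11.81.

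Carriers of chloride, calcium and phosphate numbered 8, of which 5 passed between BDIV and BDIX, 1 higher and 4 lower, with a class median of -0.54. Over all probes 27.3% passed in that comparison, 13.7% higher and 13.6% lower, and the class was not tested against them. Slc24a2, a potassium-dependent exchanger of sodium for calcium known from neurons, read 8.18 and 9.23 in BDIX, 10.46 and 10.43 in BDIV and 8.29 and 7.99 in the congenic, with both BDIV arrays above the rest. BDIV minus BDIX was 1.74 ± 0.32, adjusted p = 0.00996 and congenic minus BDIV -2.31 ± 0.32, adjusted p = 0.00335. Of the 14 sensory neuron markers 11 were higher in BDIV than in BDIX and 8 lower in the congenic than in BDIV.

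Lower in BDIV were the phosphate carrier Slc20a2, the potassium chloride cotransporter Slc12a4, Slc12a8 of the same family, and Slc8b1, the mitochondrial exchanger of sodium for calcium. Slc20a2 read 11.69 and 12.37 in BDIX, 10.77 and 10.34 in BDIV and 12.20 and 12.25 in the congenic, with BDIV below the rest (-1.47 ± 0.27, adjusted p = 0.00957; adjusted p = 0.105 without the BDIV female array). Slc12a4 read 8.99 and 8.91 in BDIX, 7.92 and 7.61 in BDIV and 8.93 and 8.91 in the congenic, so that the congenic and BDIX overlapped and BDIV lay below both (-1.18 ± 0.20, adjusted p = 0.00749; adjusted p = 0.109 without the BDIV female array). Slc12a8 was not detected on either BDIV array. It was at least 2.1-fold lower there than in BDIX and at least 2.86-fold higher in the congenic than in BDIV. Slc8b1 read 10.43 and 10.31 in BDIX, 9.53 and 9.66 in BDIV and 10.29 and 10.46 in the congenic (-0.77 ± 0.18, adjusted p = 0.0201; adjusted p = 0.173 without the BDIV female array). The related phosphate carrier Slc20a1 passed in no comparison, with -0.30 ± 0.22 for BDIV minus BDIX. Between the congenic and BDIX 0 members of the class passed, against 11.9% of all probes.

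Carriers that exchange bicarbonate, protons and other anions numbered 11. In BDIV against BDIX 3 passed, 1 of them Slc4a11, which is a member only through BDIV. That was 27.3% of the class, the same share as over all probes. Slc4a4, the sodium bicarbonate cotransporter, read 5.88 and 6.41 in BDIX, 7.61 and 7.68 in BDIV and 5.66 and 5.72 in the congenic and was higher in BDIV than in BDIX (1.5 ± 0.24, adjusted p = 0.00664; adjusted p = 0.0519 without the BDIV female array). It was not detected on the congenic arrays and was at least 3.27-fold lower there than in BDIV. Slc4a11, detected on the BDIV arrays alone, read 5.98 and 6.13 there, at least 1.46-fold above BDIX. Slc9a2, a sodium proton exchanger, was detected on no BDIV array and was at least 1.51-fold lower there than in BDIX.

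Slc9a5, the sodium proton exchanger of neurons, read 5.66 and 5.65 in BDIX, 6.13 and 6.09 in BDIV and 6.62 and 6.50 in the congenic. Both congenic arrays were above the other 4 (congenic minus BDIX 0.90 ± 0.21, adjusted p = 0.0408), but the call was lost in each of the 6 fits with an array left out (adjusted p = 0.0913 without the congenic male array). Slc4a1, the anion exchanger of the red cell membrane, read 6.51 and 6.43 in BDIX, 5.72 and 5.66 in BDIV and 7.31 and 6.38 in the congenic, with -0.78 ± 0.28, adjusted p = 0.0773 for BDIV minus BDIX and 1.16 ± 0.28, adjusted p = 0.0187 for congenic minus BDIV (adjusted p = 0.158 without the BDIV male array). Of the 8 red cell markers 7 were lower in BDIV than in BDIX, 8 were higher in the congenic than in BDIV, and 3 were lower and 0 higher in the congenic than in BDIX, where Slc4a1 was 0.37 ± 0.28. Their mean log2 level was 11.08 and 10.61 in BDIX, 8.40 and 8.12 in BDIV and 11.01 and 9.94 in the congenic. Alas2 and Hemgn among them were detected on no BDIV array, so the detection rule favoured lower values there.

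Neurotransmitter carriers and those that load vesicles numbered 12. Slc17a6, which loads glutamate into the synaptic vesicles of sensory neurons, read 11.29 and 11.67 in BDIX, 12.32 and 12.38 in BDIV and 12.44 and 11.92 in the congenic. BDIV was above BDIX (0.87 ± 0.24, adjusted p = 0.0356; adjusted p = 0.248 without the BDIV female array), and congenic minus BDIX did not pass (0.70 ± 0.24, adjusted p = 0.0935). Slc17a7, the second vesicular glutamate carrier, was detected on the BDIV arrays alone, where it read 6.59 and 6.74, at least 2.23-fold above BDIX and at least 1.65-fold above the congenic. Slc18a2, which loads monoamines, was also detected on the BDIV arrays alone, at 6.10 and 5.50. The mean log2 level of the 14 sensory neuron markers was 11.66 and 11.79 in BDIX, 12.82 and 12.79 in BDIV and 12.17 and 11.68 in the congenic, with BDIV highest. Slc6a8, the creatine carrier, was lower in BDIV than in BDIX (BDIX 11.47 and 11.83, BDIV 10.93 and 10.73; -0.82 ± 0.21, adjusted p = 0.0261; adjusted p = 0.373 without the BDIV female array). The taurine carrier Slc6a6 and the neutral amino acid carrier Slc6a15 passed in no comparison.

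Slc6a9, the glycine carrier of glia, read 6.59 and 6.24 in BDIX, 6.23 and 7.27 in BDIV and 7.46 and 8.46 in the congenic. The congenic arrays were highest, and the female pools were above the male pools in BDIV and the congenic but not in BDIX. The fit gave 1.55 ± 0.36, adjusted p = 0.0404 for congenic minus BDIX (adjusted p = 0.0922 without the congenic female array), and the call was also lost with the authors' processed values and under median scaling. Slc6a20a, a carrier of proline and other imino acids, read 5.67 and 6.25 in BDIX, 5.08 and 5.69 in BDIV and 7.45 and 7.47 in the congenic, and congenic minus BDIX was 1.5 ± 0.25, adjusted p = 0.0196. It was the only one of the 17 calls of that comparison that stayed whichever array was left out, and it also passed with the authors' processed values and under median scaling.

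Fatty acid and choline carriers numbered 6. In BDIV 3 were lower than in BDIX and 0 higher, with a class median of -0.75, against 13.6% lower and 13.7% higher over all probes. This class of 6 was not tested against the rest either. Slc44a1, the choline carrier, read 10.30 and 10.54 in BDIX, 9.05 and 8.66 in BDIV and 9.65 and 9.53 in the congenic. The 3 strains did not overlap, and BDIX was highest. Its difference between BDIV and BDIX was -1.57 ± 0.21, adjusted p = 0.00454 and kept its call whichever array was left out, while congenic minus BDIX was -0.83 ± 0.21, adjusted p = 0.0447 (adjusted p = 0.206 without the congenic female array). The fatty acid transport proteins Slc27a1 (BDIX 11.31 and 11.61, BDIV 10.25 and 10.07; -1.30 ± 0.19, adjusted p = 0.00545; adjusted p = 0.0729 without the BDIV female array) and Slc27a4 (BDIX 9.996 and 10.36, BDIV 9.30 and 9.11; -0.97 ± 0.22, adjusted p = 0.0184; adjusted p = 0.183 without the BDIV female array) were lower in BDIV. The mean log2 level of the 10 myelin markers was 12.44 and 12.85 in BDIX and 11.55 and 11.27 in BDIV. In the congenic it was 11.71 and 11.93. By their means Slc44a1, Slc27a1 and Slc27a4 were highest in BDIX and lowest in BDIV, as was the mean of that list. The listed genes did not share 1 order, with 3 of the 10 higher and 2 lower in the congenic than in BDIV. Among them congenic minus BDIX ran from -2.17 for Mbp to 0.46 for Egr2. It was -0.17 ± 0.19 for Slc27a1 and -0.23 ± 0.22 for Slc27a4. Slc44a4, a related carrier of epithelia that takes up thiamine pyrophosphate in human cells, read 6.04 and 6.0 in BDIX, 5.95 and 6.09 in BDIV and 6.76 and 7.55 in the congenic. It was higher in the congenic than in BDIX (1.14 ± 0.27, adjusted p = 0.0408), a call lost without the congenic female array. The airway and gland markers were also higher in the congenic, most of them as probes tested only through the congenic arrays.

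Mitochondrial carriers of family 25 numbered 25. Between BDIV and BDIX 7 passed, 3 higher and 4 lower, between the congenic and BDIX 0, and between the congenic and BDIV 10, 4 higher and 6 lower. These were 28%, 0% and 40% of the class, against 27.3%, 11.9% and 37% of all probes, and the class was not tested. Higher in BDIV than in BDIX were Slc25a20, which exchanges acylcarnitine for carnitine (1.11 ± 0.22, adjusted p = 0.0132; adjusted p = 0.156 without the BDIV female array), Slc25a14, an uncoupling protein of brain (0.88 ± 0.21, adjusted p = 0.0225; adjusted p = 0.212 without the BDIV female array), and Slc25a25, an exchanger of magnesium ATP for phosphate (0.80 ± 0.22, adjusted p = 0.0349; adjusted p = 0.309 without the BDIV male array). Slc25a14 read 6.99 and 7.40 in BDIX, 7.90 and 8.24 in BDIV and 6.78 and 7.19 in the congenic, with both BDIV arrays above the others. Lower in BDIV were the dicarboxylate carrier Slc25a10 (-1.09 ± 0.26, adjusted p = 0.0218; adjusted p = 0.265 without the BDIV female array), the ornithine carrier Slc25a15 (-1.05 ± 0.22, adjusted p = 0.0146; adjusted p = 0.217 without the BDIV female array), Slc25a35 (-0.91 ± 0.23, adjusted p = 0.0248; adjusted p = 0.243 without the BDIV female array) and the basic amino acid carrier Slc25a29 (-0.69 ± 0.17, adjusted p = 0.0264; adjusted p = 0.28 without the BDIV female array). Slc25a15 read 8.40 and 8.88 in BDIX, 7.62 and 7.56 in BDIV and 8.66 and 8.96 in the congenic, with both BDIV arrays below the others.

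The exchangers of ADP for ATP Slc25a4 and Slc25a5 and the citrate carrier Slc25a1 passed in no comparison. The differences between BDIV and BDIX were 0.55 ± 0.19, 0.19 ± 0.18 and -0.36 ± 0.19 for these. The phosphate carrier Slc25a3 read 12.85 and 12.97 in BDIX, 13.30 and 13.37 in BDIV and 12.32 and 12.28 in the congenic, without overlap between the strains, and passed for congenic minus BDIV alone (-1.03 ± 0.18, adjusted p = 0.00664; adjusted p = 0.104 without the congenic female array). Slc25a40, a carrier of glutathione into mitochondria, read 6.57 and 7.44 in BDIX, 7.67 and 7.75 in BDIV and 5.21 and 6.65 in the congenic, with the congenic male array far below the congenic female. Congenic minus BDIV was -1.78 ± 0.33, adjusted p = 0.00764 (adjusted p = 0.0624 without the BDIV male array). Slc25a24, an exchanger of magnesium ATP for phosphate like Slc25a25, was not detected on the congenic arrays. It read 6.44 and 6.42 in BDIV, and was at least 1.41-fold lower in the congenic than in BDIV.

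Metal carriers numbered 21, of which 2 passed between BDIV and BDIX, both lower. These were the zinc carriers of the secretory pathway Slc39a13 (-0.87 ± 0.22, adjusted p = 0.0264; adjusted p = 0.362 without the BDIV female array) and Slc39a7 (-0.83 ± 0.17, adjusted p = 0.0153; adjusted p = 0.204 without the BDIV female array). In the congenic 3 were higher than in BDIX and 0 lower. The calls were 9.52% of the class between BDIV and BDIX and 14.3% between the congenic and BDIX. Over all probes these shares were 27.3% and 11.9%, and the class was not tested against them. Slc11a2, the importer of ferrous iron, read 10.15 and 9.55 in BDIX, 9.68 and 9.45 in BDIV and 10.73 and 10.73 in the congenic (0.87 ± 0.20, adjusted p = 0.0399; adjusted p = 0.289 without the congenic female array). Slc11a1, the metal exporter of phagosomes in macrophages, read 6.34 and 6.72 in BDIX, 6.01 and 6.14 in BDIV and 7.36 and 7.85 in the congenic (1.07 ± 0.23, adjusted p = 0.0313; adjusted p = 0.0934 without the congenic female array) and against BDIV kept its call whichever array was left out (1.53 ± 0.23, adjusted p = 0.00378). Of 9 macrophage markers tested, 0 passed in any strain comparison. The zinc exporter of the plasma membrane Slc30a1, detected on 2 arrays, had -0.33 ± 0.28, adjusted p = 0.408 for BDIV minus BDIX. The iron exporter Slc40a1 passed in no comparison, with 0.41 ± 0.20 for BDIV minus BDIX and 0.40 ± 0.20 for congenic minus BDIX.

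Slc39a12, a zinc importer of brain, had the widest range of any member. It was not detected on the BDIX arrays, so that the rule favoured higher values in the other strains. It read 5.87 and 6.90 in BDIV and 6.37 and 8.26 in the congenic, at least 3.5-fold higher in the congenic than in BDIX. The female pool was above the male pool in BDIV and the congenic, where the water channel of astrocytes Aqp4 also read higher in the female, at 6.0 and 7.25 in BDIV and 5.52 and 8.13 in the congenic. Slc6a9 also read higher in the female pool than in the male pool in both strains. Aqp4 passed in no strain comparison.

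Carriers of nucleosides and vitamins numbered 9. Slc29a3, the nucleoside carrier of lysosomes, read 10.71 and 11.07 in BDIX, 9.62 and 9.73 in BDIV and 11.52 and 11.31 in the congenic, with BDIV below the other 4 arrays and the congenic above. BDIV minus BDIX was -1.22 ± 0.20, adjusted p = 0.00719 (adjusted p = 0.0632 without the BDIV female array) and congenic minus BDIV 1.74 ± 0.20, adjusted p = 0.00201. Slc46a3, a lysosomal carrier, was not detected in BDIX, so that the rule favoured higher values in the other strains. It was at least 1.43-fold higher in BDIV and at least 1.56-fold higher in the congenic. The plasma membrane nucleoside carrier Slc29a1 passed in no comparison, nor did the thiamine carrier Slc19a2 or the folate carrier Slc46a1.

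Carriers of nucleotide sugars and acetyl-CoA in the endoplasmic reticulum and Golgi numbered 14, all detected on 6 arrays, and 1 passed in each comparison with BDIX. That was 7.14% of the class for BDIV and for the congenic, against 27.3% and 11.9% of all probes, and was not tested. Slc35g2, a member of the same family, read 7.80 and 7.72 in BDIX, 8.92 and 9.02 in BDIV and 7.76 and 7.35 in the congenic, with BDIV above the rest (1.21 ± 0.22, adjusted p = 0.00953; adjusted p = 0.143 without the BDIV female array). Slc35b2, which brings the sulphate donor into the Golgi, read 8.70 and 8.45 in BDIX, 8.02 and 7.89 in BDIV and 7.56 and 7.64 in the congenic, with BDIX above the rest (-0.97 ± 0.21, adjusted p = 0.0325; adjusted p = 0.172 without the congenic male array). Slc35a1, which brings CMP-sialic acid into the Golgi, read 8.31 and 8.49 in BDIX, 8.10 and 8.19 in BDIV and 8.73 and 8.95 in the congenic, with 0.69 ± 0.19, adjusted p = 0.0277 for congenic minus BDIV. That call was lost in 4 of 6 fits with an array left out (adjusted p = 0.253 without the BDIV female array), and the sign turned under median scaling (-0.13). The other members of the class ranged from -0.67 to 0.60 in BDIV minus BDIX and did not pass.

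Slc16a1, the lactate and ketone carrier of Schwann cells and perineurium, read 10.39 and 10.78 in BDIX, 10.11 and 9.92 in BDIV and 9.90 and 9.83 in the congenic. BDIX was above the other arrays, but neither difference passed (-0.58 ± 0.20, adjusted p = 0.0718 for BDIV and -0.72 ± 0.20, adjusted p = 0.0592 for the congenic). Slc16a11, a monocarboxylate carrier, read 8.35 and 8.56 in BDIX, 7.03 and 7.98 in BDIV and 9.33 and 9.84 in the congenic. The 3 strains did not overlap, with BDIV lowest and the congenic highest. The differences were -0.95 ± 0.23, adjusted p = 0.0242 for BDIV minus BDIX (adjusted p = 0.229 without the BDIV male array), 1.13 ± 0.23, adjusted p = 0.0303 for congenic minus BDIX (adjusted p = 0.098 without the congenic male array) and 2.08 ± 0.23, adjusted p = 0.00197 for congenic minus BDIV. Its neighbour in the family Slc16a13 passed for congenic minus BDIV (0.94 ± 0.23, adjusted p = 0.0194; adjusted p = 0.163 without the congenic female array). Of the 5 members of this class, which also holds the citrate cycle acid carrier Slc13a3, 3 were higher in the congenic than in BDIV and 0 lower. Over all probes 18.1% were higher and 18.9% lower in that comparison, and this class was not tested against them.

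Organic ion, bile acid and peptide carriers numbered 13. Between BDIV and BDIX 2 passed, both lower, 15.4% of the class against 13.6% lower over all probes. Slc47a1, a proton-coupled exporter of organic cations, read 6.23 and 6.77 in BDIX, 4.92 and 5.95 in BDIV and 7.20 and 7.58 in the congenic and was lower in BDIV than in BDIX (-1.07 ± 0.25, adjusted p = 0.0208; adjusted p = 0.215 without the BDIV male array) and higher in the congenic than in BDIV (1.96 ± 0.25, adjusted p = 0.00266). Slc22a17, a receptor for lipocalin, read 11.31 and 11.32 in BDIX, 10.78 and 10.63 in BDIV and 10.34 and 10.45 in the congenic, with both BDIX arrays above the other 4. It was lower in BDIV (-0.61 ± 0.17, adjusted p = 0.0385; adjusted p = 0.407 without the BDIV female array) and in the congenic (-0.92 ± 0.17, adjusted p = 0.0253; adjusted p = 0.186 without the congenic male array). Slc22a8, which takes up organic anions, was detected on the congenic arrays alone, where it read 6.0 and 6.42, at least 1.63-fold above BDIX and at least 1.65-fold above BDIV. Slc22a3, an organic cation carrier at the edge of detection, was not detected on the BDIX arrays, read 5.22 and 5.70 in BDIV and 5.36 and 6.35 in the congenic, and did not pass for BDIV minus BDIX (adjusted p = 0.117).

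Several of the carriers highest in the congenic are known from the meninges in rodents, a grouping chosen with their values in view, which carries no test. It holds Slc6a13, a carrier of GABA and taurine, with Slc6a20a, Slc13a3, Slc22a2, Slc22a6, Slc22a8 and Slc47a1. Of these only Slc6a20a and Slc22a8 passed in congenic minus BDIX, and Slc22a8 is a member only through the congenic. Slc6a13 (0.92), Slc13a3 (0.59), Slc22a2 (0.74), Slc22a6 (0.45) and Slc47a1 (0.89) did not pass there. The differences that follow are congenic minus BDIV. Slc6a13 read 8.18 and 7.76 in BDIX, 6.45 and 7.65 in BDIV and 8.53 and 9.25 in the congenic, and congenic minus BDIV was 1.83 ± 0.37, adjusted p = 0.00974 (adjusted p = 0.0583 without the BDIV male array). Slc13a3 read 9.36 and 9.34 in BDIX, 8.98 and 8.66 in BDIV and 10.03 and 9.84 in the congenic (1.12 ± 0.18, adjusted p = 0.00512; adjusted p = 0.0693 without the BDIV female array), without overlap between the strains. Slc22a6, an organic anion exchanger, read 7.45 and 7.12 in BDIX, 6.21 and 7.06 in BDIV and 7.46 and 8.01 in the congenic (1.10 ± 0.31, adjusted p = 0.0297; adjusted p = 0.249 without the BDIV male array). Slc22a2, an organic cation carrier, read 5.65 and 6.01 in BDIX, 5.36 and 6.28 in BDIV and 6.27 and 6.88 in the congenic (0.75 ± 0.24, adjusted p = 0.0426; adjusted p = 0.375 without the BDIV male array). In BDIV the female array was above the male array for Slc6a13, Slc6a20a, Slc22a2, Slc22a6 and Slc47a1 and below it for Slc13a3, and Slc22a8 was detected on neither.

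Meningeal marker genes, in a list also written after these values were seen, had a mean log2 level of 9.06 and 9.10 in BDIX, 8.85 and 9.30 in BDIV and 9.28 and 9.67 in the congenic over 11 tested. Of these, 5 were higher and 1 lower in the congenic than in BDIV, against 18.1% higher and 18.9% lower over all probes. Aldh1a2, among the 5, was detected on no BDIV array, so the detection rule favoured lower values there. Against BDIX 3 were higher and 1 lower in the congenic, and 3 higher and 2 lower in BDIV. In BDIV 8 of the 11 read higher in the female than in the male, and Cdh1, Crabp2 and Zic2 did not. Of 10 choroid plexus markers Ttr, Clic6, Otx2, Folr1, Kl, Cldn2 and F5 were not detected on 2 arrays. The 3 tested were Enpp2, detected on 6 arrays, and Kcnj13 and Kcne2, detected on 2 each. Only Kcne2 passed, lower in the congenic than in BDIX (-0.93). It read 5.61 and 5.77 in BDIX and 4.74 and 4.77 in the congenic, near the limit of detection. The part of meningeal tissue in the carrier differences was not tested.

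**Figure D4:**
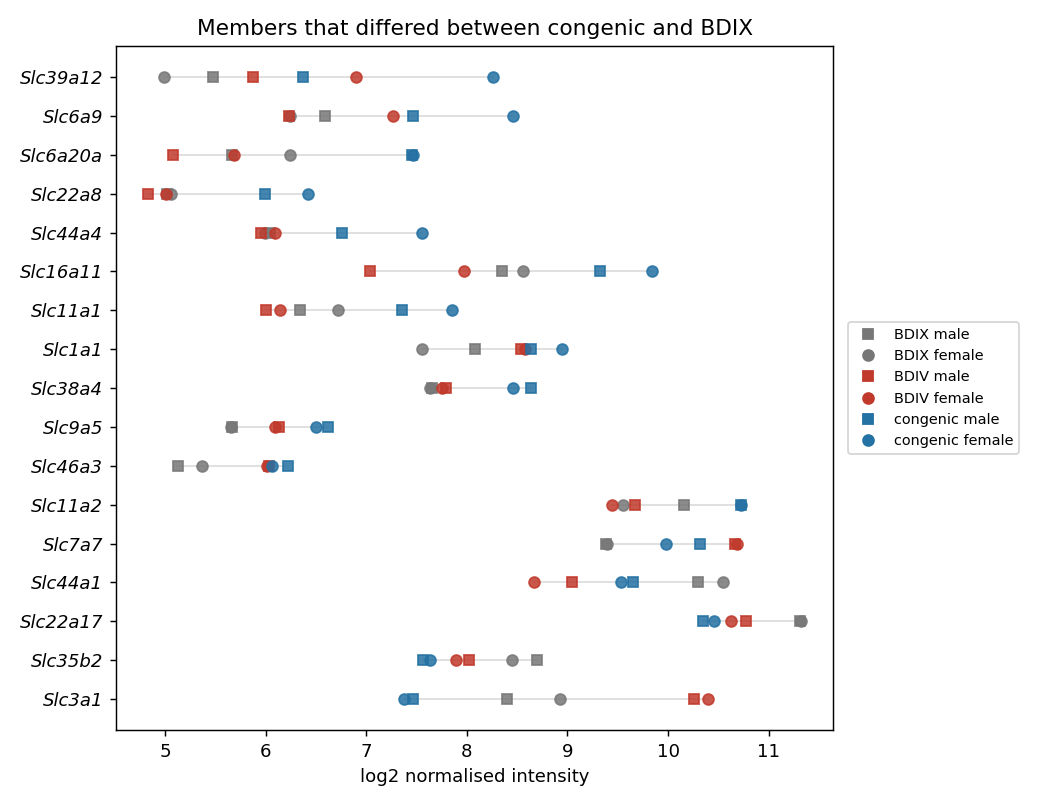
Log2 normalised intensity of the 17 members that differed between the congenic and BDIX, ordered from the largest increase to the largest decrease in the congenic, 1 symbol per array, with squares for male and circles for female pools. Slc39a12 and Slc6a9 show wide gaps between the male and female congenic arrays, and Slc3a1 has all 3 strains apart. Slc22a8 is a member only through the congenic arrays and had to be higher there.

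Pumps that set the gradients and partners that bring carriers to the membrane were listed apart, with 10 tested. The sodium pump subunit Atp1b1 (0.85 in BDIV minus BDIX), the calcium pump Atp2b1 (0.82) and the lactate carrier partner Emb (0.91) were higher in BDIV. The sodium pump subunit Atp1b2 (-1.13) and the pump regulator Fxyd6 (-1.22) were lower. In congenic minus BDIX 3 were lower, Fxyd1 (-1.59), Fxyd6 (-1.18) and Nptn (-1.68). Carriers with other symbols, 10 tested, had Aqp1 (0.85) and Mpc2 (0.94) higher and Slco1c1 (-1.67) and Slco3a1 (-0.98) lower in BDIV than in BDIX, while Mpc1 (-1.14) was lower in the congenic than in BDIX. Slco1c1, a thyroid hormone carrier of brain endothelium, was lower where 4 of 5 endothelial markers were lower, which ranged from -1.97 for Vwf to 0.0032 for Cldn5.

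Males and females could be compared across the 3 strains. With limma 0 members and 0 of all probes passed for male minus female, and at an unadjusted p under 0.05 there were 7 members (4.27%) and 321 of all probes (3.06%). The members with the smallest p were Slc22a2 (-0.63 ± 0.19), Slc47a1 (-0.65 ± 0.20), Slc39a10 (-0.74 ± 0.23), Slc25a40 (-0.79 ± 0.27) and Slc16a11 (-0.56 ± 0.19), each lower in the male pool in 3 of 3 strains, with an adjusted p of 0.959.

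The strain differences in the male pools and in the female pools correlated over the 164 members with r = 0.76 for BDIV minus BDIX, 0.63 for congenic minus BDIX and 0.88 for congenic minus BDIV, as a description over probes of the same arrays. They had the same sign in 124, 126 and 142 members. A member of opposite signs in the sexes could hardly be called, since that difference enters the residual of the fit.

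**Figure D5:**
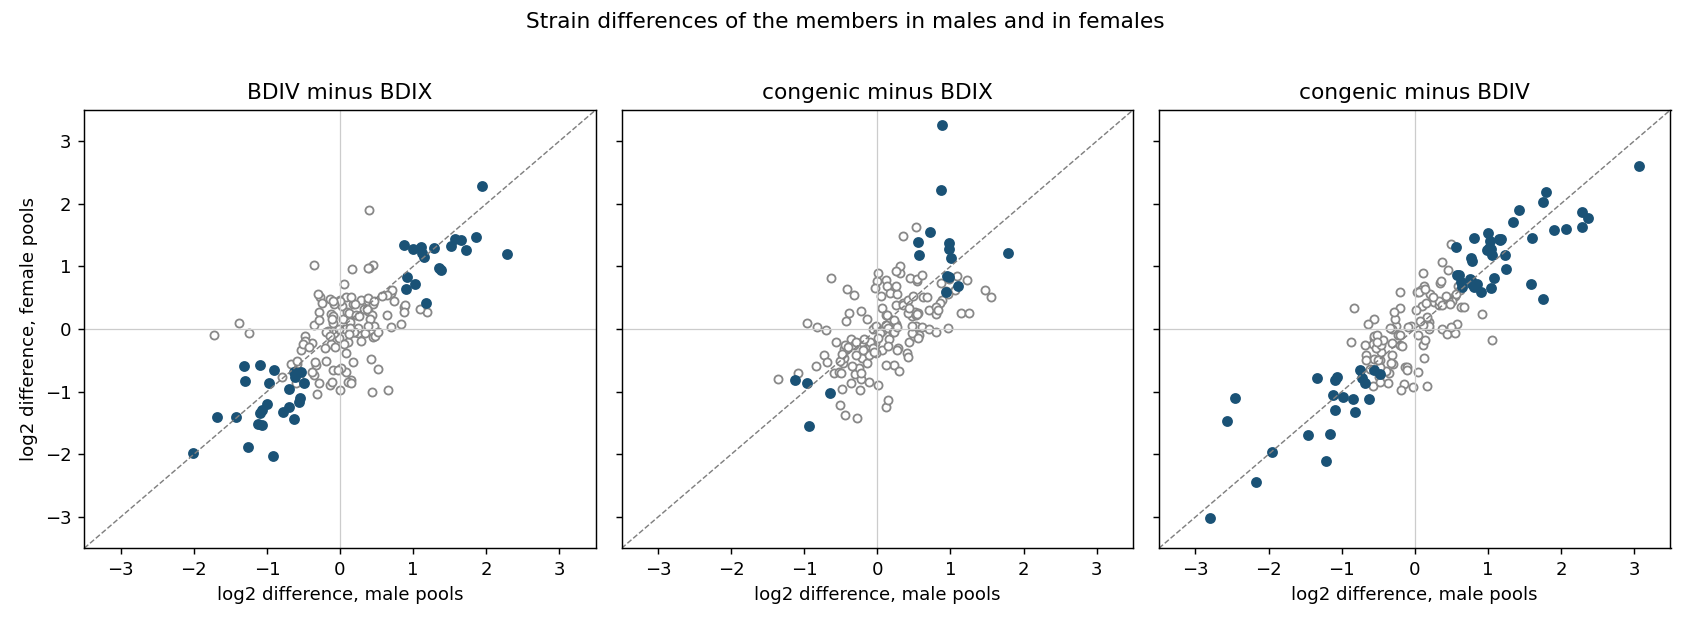
Log2 strain differences of the 164 members in the male pools (x axis) and in the female pools (y axis), one circle per member, filled where the call passed. Filled circles lie in the lower left and upper right quadrants, 44, 17 and 62 in the panels from left to right.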

How the data were processed

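Trigeminal nerve RNA of 6 pools, 1 per strain and sex, was hybridised to 1 array each, and groups were taken from the sample titles. The authors deposited a signal intensity and a detection p-value per probe and array, per the file headers, with no background subtracted and also processed values, related linearly to the signal within an array. The submitters' processing notes list BeadStudio 3.0. Signal intensity is linear, and the deposited detection p-value steps imply 825 negative control probes. Of 21791 probes, 242 with values exchanged between the tables were left out. The number of arrays limits the precision.

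From the signal, limma 3.58.1 in R 4.3.3 removed background (normexp, with its parameters inferred from detection p and an offset of 16). Log2 was then taken, and the log2 values were quantile normalised. The 10484 probes with a detection p under 0.01 on 2 or more arrays entered a limma model of strain and sex with an intensity trend (2 residual and 5.28 prior degrees of freedom), with Benjamini-Hochberg adjustment over all of them. Sex is the only link between arrays of different strains and stands in the model. The steps were tested on simulated data. Where no array of a group detected a probe, the fold is "at least" the brighter group's mean over the dimmer group's floor, which is the array's lowest detected level (probes with averaged detection p left aside) or, if higher, what the probe itself read.

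Members were matched to genes by platform symbol and gene number, and promoters come from RefSeq (GRCr8). Transporter classes follow the family number. Members, lists, classes and tests were chosen with earlier results of these data known. Named were the 10 largest calls each way per strain comparison (same sign in both sexes), 3 members per class with the smallest p over strains, the detected genes of a list of well known carriers, the 5 smallest p for sex, members at the edge of detection, and, from the lists of partners and other carriers, those that passed. The markers of meninges, choroid plexus, macrophages and satellite glia, and any member named outside this rule, were picked after values were seen, as were the class of 2 probes that are not carriers, the place of family 66 among amino acids, the promoters and motifs, and 2 alternatives that count fewer members. 0 columns of other samples were present.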

Additional observations from a re-analysis of the deposited data

Results flagged for a closer look

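Slc9a8, a proton exchanger of the Golgi, differed in opposite directions by sex, with BDIV minus BDIX at 0.65 in the male pools and -0.98 in the female pools (log2). It read 4.98 on the BDIX male array and 6.25 on the BDIX female, and its probe was detected on only the BDIX female and BDIV male arrays. Slc2a5 had congenic minus BDIX at -0.63 in males and 0.81 in females. Each of these rests on 1 array per strain and sex, and the difference between the sexes was not tested. Only the named members were screened for this, and those with opposite signs below 0.5 on the log2 scale in either sex are not listed. Slc39a8, left out because its values were exchanged between the deposited tables, was detected on 6 arrays.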

How the results depend on the processing

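Between BDIV and BDIX the count of members called ran from 35 to 55 over the other settings, against 44. With 1 array left out it ran from 7 to 62 (22 and 7 without the BDIV male or female array), where the strain with a lone array is assumed to vary like the others. Between the congenic and BDIX, 17 became 5 with the authors' processed values, 59 under median scaling and 6 without the filter on dim probes. It ran from 7 to 46 with 1 array left out, at 46 and 31 without the BDIX male or female, 7 without either BDIV array, and 9 and 8 without the congenic male or female. Between the congenic and BDIV it ran from 44 to 83 against 62, and from 21 to 88 with 1 array left out, at 26 and 21 without the BDIV male or female and 37 without the congenic female. Fewer arrays or more probes tested enter these fits, and for the other changes the cause was not tested. Male against female gave 0 in each setting run, and could not be run without the sex term. With the authors' values 39 of 44, 4 of 17 and 51 of 62 calls were kept, and with median scaling 38, 7 and 35. The settings were 2 other normalisations, no background correction, an offset of 50, 2 filters, no intensity trend and no sex term, which gave 52, 21 and 71 calls, and, added after the data were seen, members detected on all 6 arrays and members without the 2 that are not carriers. The number of members was 187 at a detection p under 0.05, 176 with 1 array, 120 with 6 arrays and 164 by current symbol. Turns of sign under median scaling are listed for called members, and for named members called under median scaling alone. Other members that were not called also turned and are not listed. Slc4a1ap turned to -0.54 for congenic minus BDIX. For congenic minus BDIV 9 called members turned, Slc38a4 to -0.047, Slc38a6 to -0.050, Slc8b1 to -0.021, Slc27a4 to -0.079, Slc44a1 to -0.082, Slc30a5 to -0.10, Slc39a7 to -0.15, Slc25a29 to -0.042 and Slc35a1 to -0.13, as did Slc3a2 (-0.75) and Slc4a1ap (-0.65), which were not called, where the median of all probes was -0.64. For members detected on few arrays, signal near background limits the precision.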
